A study of Homo sapiens with 12 samples.

Results

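The genes followed here are CDKN1A, BTG2, GADD45A, GADD45B, SFN, SERTAD1, PLK2 and PLK3. Most are known for halting or slowing the cell cycle after DNA damage, but SERTAD1 is a coactivator of E2F. All 8 are called growth arrest genes below. They were chosen by name as growth arrest and stress genes induced by DNA damage, with earlier results of these data known. They are 8 of the 60902 rows of the expression table. Counts set beside those of all genes below therefore describe the 8 genes and do not test the list. Each symbol matched 1 row, and all 8 passed the filter on low values, a mean of at least 1 TPM over all libraries. TPM is the share of a library's transcripts that belongs to a gene, corrected for gene length.

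The libraries came from A549/DDP, a human lung adenocarcinoma line kept resistant to cisplatin (DDP) with 1 µg/mL of the drug. A549 is an established line that lacks the CDKN2A locus, and CDKN2A averaged between 0 and 0.03 TPM here. The 12 libraries form 4 groups of 3. The TRF + DDP group (labelled TRF_DDP) received both interventions and the TRF group the time-restricted feeding medium alone: in every 24 h cycle, 6 h in complete medium with 2 g/L glucose and 10% serum were followed by 18 h with neither serum nor glucose. The DDP group received cisplatin, and the CON group stayed in complete medium. The labels give neither the dose and duration of cisplatin in the sequenced cells nor the medium of the DDP group, and do not say whether the libraries of a group are separate cultures, so the p-values measure only the spread between these libraries.

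Cisplatin forms adducts on DNA. The damage activates the kinases ATM and ATR, these stabilize the transcription factor p53, and p53 switches on genes that stop the cell cycle while the lesions are repaired. CDKN1A encodes p21, the inhibitor of cyclin-dependent kinases through which p53 holds cells before S phase. SFN encodes stratifin, which keeps CDK1 and cyclin B in the cytoplasm and so delays mitosis. BTG2 is an antiproliferative protein that brings the CCR4-NOT deadenylase to mRNAs, and the GADD45 proteins bind PCNA, p21 and the kinase MAP3K4 upstream of p38 and JNK. PLK2 and PLK3 are polo-like kinases that respond to stress, unlike the mitotic PLK1. SERTAD1 differs in its role, since it binds CDK4 and acts as a coactivator of E2F.

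All 8 genes were highest in TRF + DDP, in every library, and none of the 3 TRF + DDP libraries overlapped with any library of the other groups for any of them. The share of all genes tested that were separated in this way was not computed, so this describes the 8 genes only. With a call set at an adjusted p under 0.05 and a change of more than 1.5-fold, 8 of 8 were called higher in TRF + DDP than in DDP, where 11.8% of the 13854 genes tested were called higher. The same 8 of 8 held for TRF + DDP against TRF, with 10.2% of all genes called higher, and for TRF + DDP against CON, with 15.6%. With a single intervention the 8 genes divided. TRF alone raised 3 of them over CON (8.41% of all genes called higher) and lowered 1 (17.1% called lower), and DDP alone raised 4 over CON (1.86% called higher). The median log2 fold change of the 8 genes was 1.48 in TRF + DDP against DDP, where the median of all genes tested was -0.10. It was 1.85 against TRF (all genes 0.06), 2.10 against CON (all genes -0.03), 0.21 in TRF against CON (all genes -0.11) and 0.62 in DDP against CON (all genes 0.06).

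**Figure D1:**
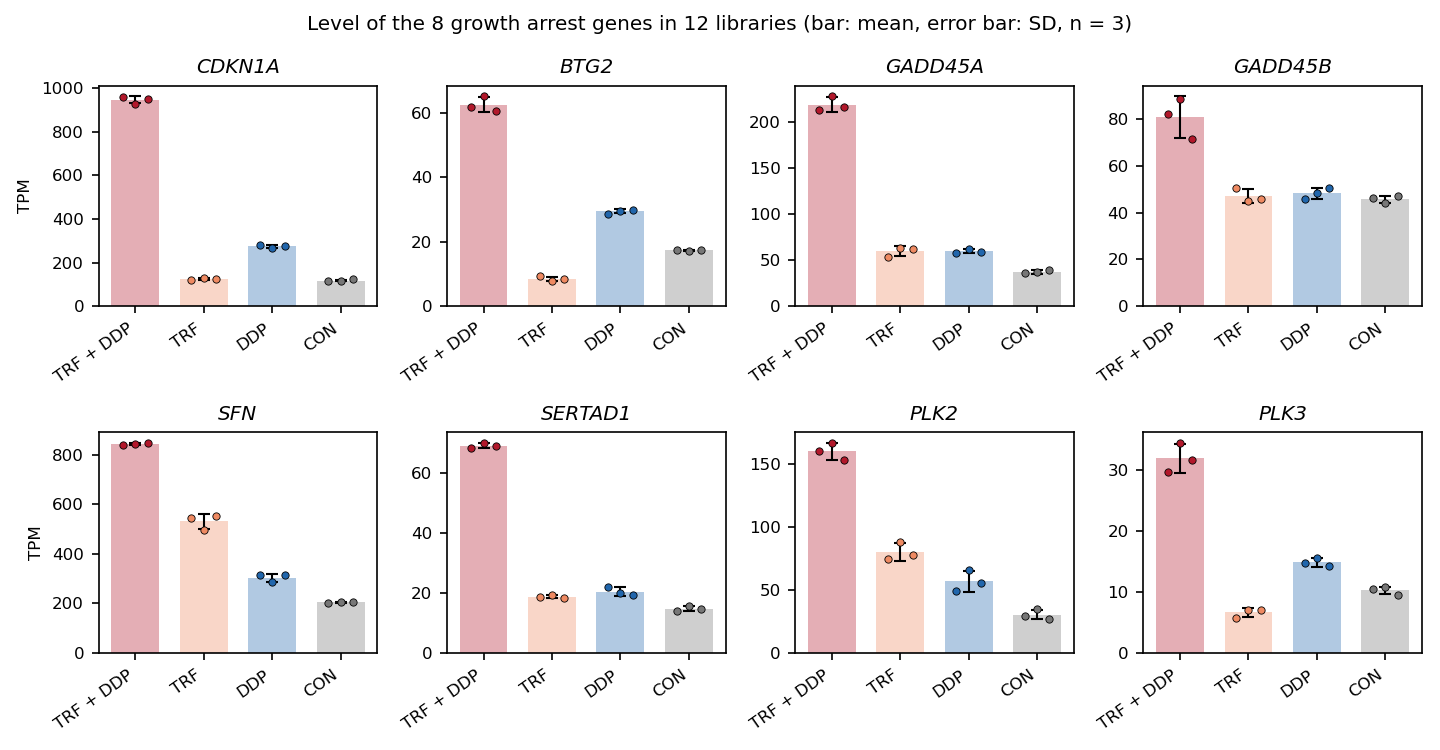
TPM of each gene (vertical axis, from 0, with its own scale per gene) in the TRF + DDP, TRF, DDP and CON groups; points are the 3 libraries, bars the mean and error bars the SD. The TRF + DDP bar is the tallest for every gene, while the TRF bar lies below CON for BTG2 and PLK3 and above DDP for SFN and PLK2.

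Levels are TPM of each library in the order of its replicate number. Tests are limma's moderated test on log2(TPM + 1), fitted over all groups and adjusted over all genes with the Benjamini-Hochberg method. Fold changes are on that scale, with the standard error (SE) of the log2 value. Bulk TPM cannot tell more cells that carry a transcript from more transcript per cell.

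The genes lie on 4 chromosomes in GENCODE v29 (GRCh38), all of them protein-coding. CDKN1A is at chr6:36676460-36687339 on the plus strand and PLK2 at chr5:58453982-58460260 on the minus strand. BTG2 (chr1:203305491-203309602), GADD45A (chr1:67685061-67688338), SFN (chr1:26863138-26864457) and PLK3 (chr1:44800225-44805990) are on the plus strand of chromosome 1. GADD45B (chr19:2476122-2478259, plus strand) and SERTAD1 (chr19:40421592-40426025, minus strand) are on chromosome 19. CDKN1A overlaps the antisense lncRNA DINOL, which averaged 0.171 TPM, and PLK3 overlaps the antisense gene TCTEX1D4, which averaged 0.577 TPM. Whether reads were assigned by strand is not given in the sources used here, so reads of each pair may not be told apart.

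RefSeq (GRCh38.p14) promoters were found for 7 of the 8 genes and searched on both strands, in the 250 bases before the start, for the p53-binding decamer and 5 short motifs. The decamer was searched as a single copy, and bases farther from the start were not searched. A gene without a match here may therefore hold p53 sites elsewhere. The stretches below lie next to the start of genes that were each highest under the combination, with the matches in capitals. They are written 5′ to 3′ on the strand of the gene. The 30-base PLK2 stretch, at chr5:58460199-58460228, holds the 1 p53-binding decamer found among the 7 and lies in an exon that GENCODE annotates before the RefSeq start. The others lie outside the gene's exons, at chr1:203305369-203305490 for BTG2, chr19:2475977-2476121 for GADD45B, chr1:26862999-26863137 for SFN and chr19:40426026-40426142 for SERTAD1.
PLK2: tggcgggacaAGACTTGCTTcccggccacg
BTG2: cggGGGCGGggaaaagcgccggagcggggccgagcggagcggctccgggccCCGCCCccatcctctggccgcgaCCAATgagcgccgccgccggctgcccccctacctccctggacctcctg
SERTAD1: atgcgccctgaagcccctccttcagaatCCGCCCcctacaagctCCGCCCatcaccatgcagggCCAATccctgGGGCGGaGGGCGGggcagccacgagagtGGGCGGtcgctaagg
SFN: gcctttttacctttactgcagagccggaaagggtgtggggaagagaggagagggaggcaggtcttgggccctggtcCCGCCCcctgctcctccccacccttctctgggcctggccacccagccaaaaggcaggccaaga
GADD45B: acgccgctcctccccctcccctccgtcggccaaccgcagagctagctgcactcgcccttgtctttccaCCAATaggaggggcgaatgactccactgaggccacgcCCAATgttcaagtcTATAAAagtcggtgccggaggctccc

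The GC box GGGCGG was found in 6 of the 7 promoters, all but GADD45B, and in 42.6% of all 35116 promoters. CCAAT was found in BTG2, GADD45B and SERTAD1, and in 32.01% of all promoters. GADD45B alone held TATAAA, which 10.7% of all promoters held. The p53-binding decamer, present in PLK2, was found in 5.57% of all promoters. The CRE TGACGTCA and the AP-1 site TGACTCA, found in 1.65% and 4.20% of all promoters, had no match in the 7. A GC box on the opposite strand reads CCGCCC in the stretches above. These are matches of letters. Matches of different motifs did not overlap, and a pair of neighbouring GC boxes in CDKN1A shared a base.

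CDKN1A had the highest level of the 8 genes under the combination. It stood at 960.2, 929 and 949 TPM in TRF + DDP, against 279.7, 268 and 278 TPM in DDP, 121, 129.7 and 126 TPM in TRF, and 116, 114 and 122 TPM in CON. The combination was far above all others, DDP was clearly above TRF and CON, and TRF and CON overlapped. TRF + DDP was 3.43-fold above DDP (log2 1.78 ± 0.039, SE, adjusted p = 7.82e-12) and 7.99-fold above CON (log2 2.999, adjusted p = 2.42e-13). DDP alone was 2.33-fold above CON (adjusted p = 1.17e-08). TRF alone was not called, with a log2 difference of 0.09 from CON and a 95% confidence interval from 0.01 to 0.18 (adjusted p = 0.0571).

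SFN, the other member of very high level, followed a different order of groups. Its levels were 839.6, 842 and 848 TPM in TRF + DDP, 546, 496 and 551 TPM in TRF, 313, 285 and 312 TPM in DDP, and 201, 206 and 205 TPM in CON. No pair of groups overlapped, and TRF, not DDP, was the second highest. SFN was 2.77-fold higher in TRF + DDP than in DDP (log2 1.47 ± 0.047, adjusted p = 1.29e-10) and 1.59-fold higher than in TRF (log2 0.67, adjusted p = 3.2e-07). TRF alone raised it 2.59-fold over CON (adjusted p = 3.61e-10). DDP alone was 1.48-fold above CON, past the p threshold (adjusted p = 1.88e-05) but short of the fold. The call against TRF is close to the fold threshold too, and with a TMM-style scaling of the libraries its log2 value was 0.56, under that threshold.

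BTG2, the antiproliferative deadenylase partner, was the member that TRF alone lowered. It measured 62.0, 65.2 and 60.8 TPM in TRF + DDP, 9.28, 7.79 and 8.30 TPM in TRF, 28.7, 29.7 and 29.96 TPM in DDP, and 17.3, 17.2 and 17.4 TPM in CON. TRF libraries were the lowest and TRF + DDP libraries the highest, with DDP and CON between them and no overlap. TRF alone reduced BTG2 to 0.515-fold of CON (log2 -0.96 ± 0.062, adjusted p = 7.04e-08), while DDP alone raised it 1.66-fold (adjusted p = 2.02e-05). In TRF + DDP it was 2.09-fold above DDP (adjusted p = 1.63e-08) and 6.74-fold above TRF (log2 2.75, adjusted p = 5.18e-11).

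GADD45A, one of the adaptors of MAP3K4, rose with each intervention and most with both. Its TPM values were 213, 228 and 216 in TRF + DDP, 53.7, 63.7 and 62.0 in TRF, 57.8, 62.6 and 59.5 in DDP, and 35.9, 36.9 and 39.4 in CON. TRF and DDP overlapped, both were above CON, and the combination was far above both. The change was 3.62-fold over DDP (log2 1.85 ± 0.064, adjusted p = 2.46e-10) and 5.75-fold over CON (adjusted p = 1.46e-11). Each single intervention raised it over CON, TRF 1.58-fold (adjusted p = 2.53e-06) and DDP 1.59-fold (adjusted p = 4.97e-05).

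GADD45B, its paralog, was called in the 3 comparisons of TRF + DDP with another group, and in neither comparison of a single intervention with CON. It had 82.6, 89.0 and 71.4 TPM in TRF + DDP, against 50.8, 44.9 and 45.9 TPM in TRF, 46.0, 48.3 and 50.7 TPM in DDP, and 46.2, 44.1 and 47.2 TPM in CON. TRF, DDP and CON overlapped with one another, and the TRF + DDP libraries were above all of them but more spread out. TRF + DDP was 1.66-fold above DDP (log2 0.73 ± 0.076, adjusted p = 3.23e-06) and 1.74-fold above CON (adjusted p = 1.21e-06), the smallest increases among the 8 genes in these comparisons. Its log2 difference from CON was 0.04 in TRF, with a 95% interval from -0.13 to 0.20, and 0.07 in DDP, with an interval from -0.09 to 0.24.

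SERTAD1, the CDK4-binding coactivator, had 68.2, 70.0 and 69.0 TPM in TRF + DDP, 18.5, 19.2 and 18.3 TPM in TRF, 21.9, 20.1 and 19.1 TPM in DDP, and 13.9, 15.4 and 14.7 TPM in CON. TRF and DDP overlapped slightly above CON, and the combination was far above them. SERTAD1 rose 3.29-fold over DDP (log2 1.72 ± 0.060, adjusted p = 2.51e-10) and 4.47-fold over CON (adjusted p = 2.67e-11). The single interventions passed the p threshold but not the fold, at 1.25-fold for TRF (adjusted p = 0.00046) and 1.36-fold for DDP (adjusted p = 0.000531).

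PLK2, a p53-inducible polo-like kinase, had 160.4, 166 and 153 TPM in TRF + DDP, 74.4, 87.9 and 77.5 TPM in TRF, 49.2, 65.4 and 55.6 TPM in DDP, and 29.1, 34.4 and 27.0 TPM in CON. The groups followed the order seen for SFN, with TRF second and no overlap. Both single interventions raised it over CON, TRF 2.60-fold (log2 1.38 ± 0.11, adjusted p = 4.09e-07) and DDP 1.85-fold (adjusted p = 0.000242). Under the combination it was 2.80-fold above DDP (adjusted p = 1.29e-07) and 1.99-fold above TRF (adjusted p = 1.26e-05).

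PLK3, the kinase that phosphorylates p53 after stress, had the lowest levels of the 8 genes. It measured 29.7, 34.5 and 31.7 TPM in TRF + DDP, 5.77, 6.96 and 7.10 TPM in TRF, 14.7, 15.7 and 14.2 TPM in DDP, and 10.4, 10.8 and 9.52 TPM in CON. TRF was below CON and DDP above it, as for BTG2, and no groups overlapped. PLK3 was 2.08-fold higher in TRF + DDP than in DDP (log2 1.06 ± 0.086, adjusted p = 3.51e-07) and 4.34-fold higher than in TRF (adjusted p = 5.52e-09). TRF alone gave 0.676-fold of CON (log2 -0.56, adjusted p = 0.000114) and DDP alone 1.41-fold (adjusted p = 0.00306), both short of the fold.

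**Figure D2:**
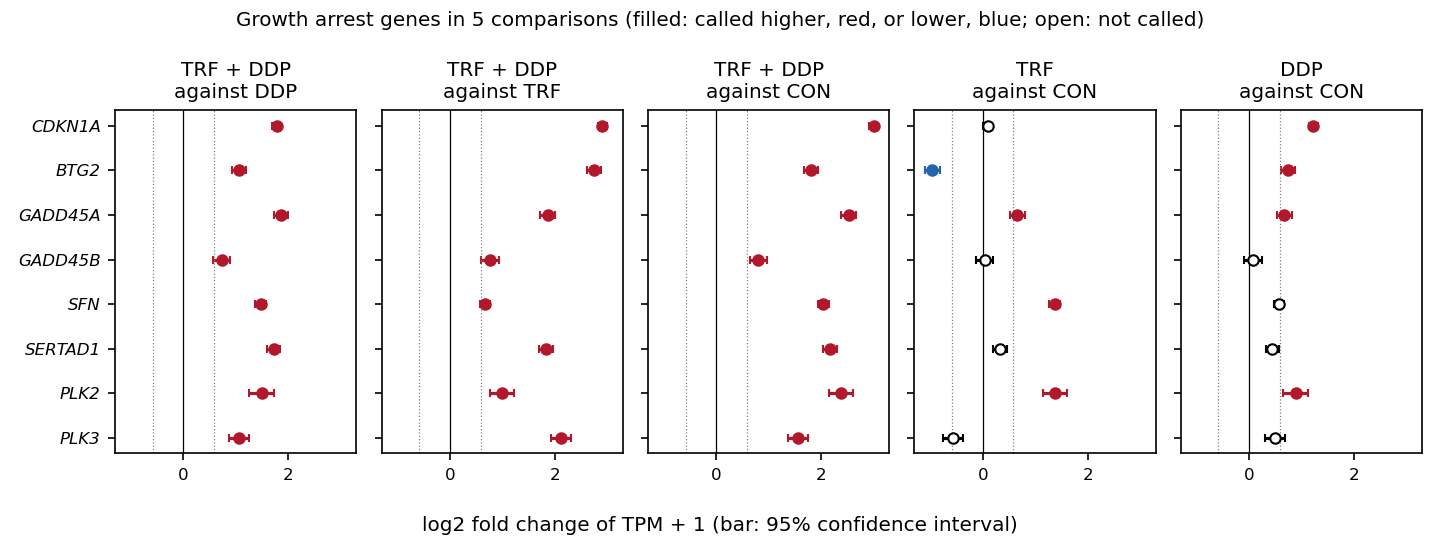
Log2 fold change of TPM + 1 (horizontal axis) for the 8 genes in 5 comparisons, with 95% confidence intervals; filled points were called higher (red) or lower (blue), open points were not called, and dotted lines mark the fold of 1.5. Every point of the 3 TRF + DDP panels lies to the right of the dotted line, and in TRF against CON the points run between BTG2 at -0.96 and PLK2 at 1.38.

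The next comparison asked whether the effect of cisplatin differed under TRF. The effect of DDP under TRF (TRF + DDP against TRF) was set against that without TRF (DDP against CON) in an interaction term, for which an adjusted p under 0.05 alone made the call. A positive term was called for 6 of the 8 genes and a negative one for none, where 13.5% of all genes had a positive term called. The median term of the 8 genes was 1.29 on the log2 scale, and that of all genes tested was 0.00.

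BTG2 had the highest term. DDP raised it 6.74-fold under TRF and 1.66-fold without TRF, a log2 difference of 2.02 ± 0.087 (adjusted p = 9.09e-08). CDKN1A followed, with 7.49-fold under TRF and 2.33-fold without TRF and a difference of 1.69 ± 0.056 (adjusted p = 7.65e-09). These are the members with the largest response to cisplatin under TRF, and for BTG2 the response began from a level that TRF had lowered. The term was 1.62 ± 0.12 for PLK3 (adjusted p = 2.65e-06), 1.39 ± 0.084 for SERTAD1 (adjusted p = 9.62e-07), 1.19 ± 0.091 for GADD45A (adjusted p = 2.81e-06) and 0.69 ± 0.11 for GADD45B (adjusted p = 0.000536).

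SFN and PLK2 stood apart from the other 6, since the DDP effect on them was not called different. For SFN it was 1.59-fold under TRF and 1.48-fold without TRF, a log2 difference of 0.10 with a 95% interval from -0.05 to 0.24 (adjusted p = 0.295). For PLK2 it was 1.99-fold under TRF and 1.85-fold without TRF, a difference of 0.11 with an interval from -0.22 to 0.43 (adjusted p = 0.644). The interval for PLK2 is wide enough to hold a moderate difference in either direction, and a p above the threshold does not show that the effects were alike.

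On the linear scale, the TRF + DDP level can be compared with CON plus the 2 single differences. All 8 genes exceeded this sum, SFN and PLK2 included. Increases that only multiply also exceed such a sum, so an excess alone does not show more than multiplied effects. The share of all genes with an excess was not computed. The excess was 663 ± 10.6 TPM (SE, n = 3 libraries a group) for CDKN1A, 213 ± 19.95 TPM for SFN, 137 ± 5.80 TPM for GADD45A and 53.3 ± 7.68 TPM for PLK2. It was 44.8 ± 1.09 TPM for SERTAD1, 42.0 ± 1.43 TPM for BTG2, 31.3 ± 5.67 TPM for GADD45B and 20.8 ± 1.55 TPM for PLK3. For SFN and PLK2 the log2 interaction term was not called, so a difference from additivity is given for them on the linear scale only, with no test.

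**Figure D3:**
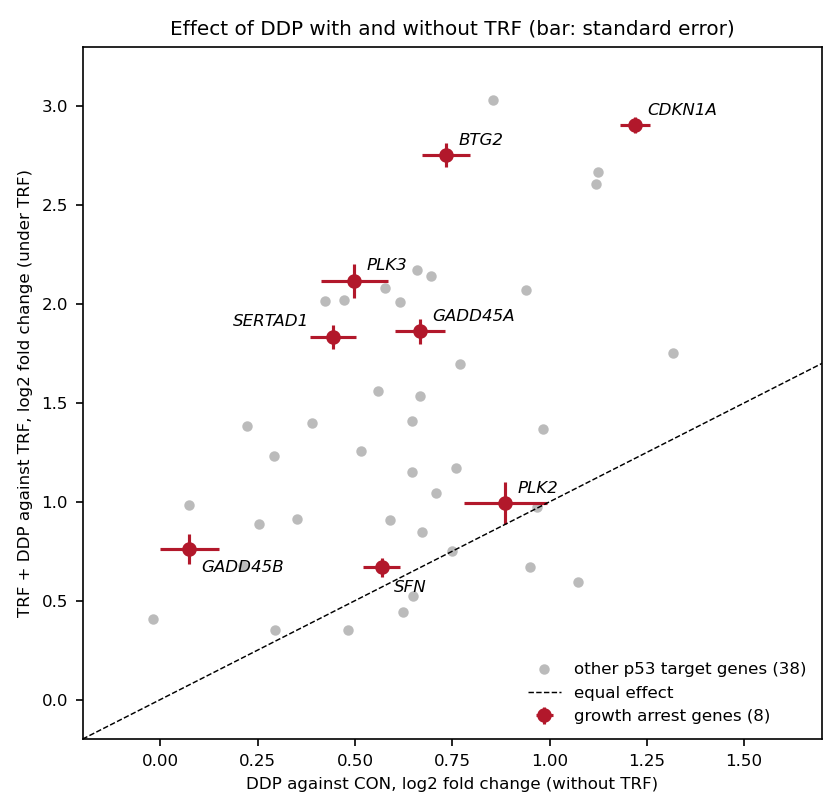
Log2 fold change of DDP against CON (horizontal axis) and of TRF + DDP against TRF (vertical axis) for the 8 genes (red, bars are standard errors) and 38 other p53 target genes (grey); the dashed line marks an equal effect. SFN and PLK2 lie near the line, at 0.57 and 0.67 for SFN and 0.89 and 0.99 for PLK2, and the other 6 genes lie above it.

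The shapes of the genes over the 12 libraries were compared by the root mean square (RMS) difference of their centred log2(TPM + 1) values, given as a description. Among the 8, the nearest pair was GADD45A and SERTAD1 (RMS 0.16), followed by SFN and PLK2 (0.23) and BTG2 and PLK3 (0.28). CDKN1A was not close to any of the 7 others, with GADD45A the nearest at 0.45, and the farthest pair of all was BTG2 and SFN at 1.01.

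Among the 7742 named genes that averaged 10 TPM or more, DGKA (RMS 0.33), PIDD1 (0.36) and PMAIP1 (0.37) were nearest to CDKN1A. DGKA, a diacylglycerol kinase, averaged 59.4 ± 4.93 TPM in TRF + DDP, 12.1 ± 2.04 TPM in TRF, 25.1 ± 3.99 TPM in DDP and 11.4 ± 0.495 TPM in CON (SD, n = 3 each), the group order of CDKN1A. GDF15, a secreted stress cytokine, was nearest to BTG2 (0.18), with 381 TPM in TRF + DDP, 45.6 TPM in TRF, 201 TPM in DDP and 111 TPM in CON on average. SESN1, a sestrin, was nearest to PLK3 (0.14) and likewise lowest in TRF, at 8.10 TPM against 13.0 TPM in CON. The nearest genes were CIDECP1 for SFN (0.14), PHLDB3 for SERTAD1 (0.14) and KCTD11 for GADD45B (0.064).

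The genes were then set beside other lists of the same pathway. Of 38 other p53 target genes, all of which were tested, 19 were called higher and 3 lower in TRF + DDP than in DDP, where 11.8% of all genes were higher and 21.4% lower, and the median log2 fold change of the list was 0.59. In TRF + DDP against TRF the list had 33 called higher and none lower (10.2% and 6.10% of all genes), with a median of 1.25. In TRF against CON it had 3 called higher and 12 lower (8.41% and 17.1% of all genes), with a median of -0.44. DDP alone raised 23 of them over CON and lowered none (1.86% and 0.159% of all genes), with a median of 0.65. A positive interaction term was called for 28 and a negative one for 2, against 13.5% and 16.3% of all genes.

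The targets with the largest called changes in TRF + DDP against DDP were led by PMAIP1, which encodes the death-promoting BH3 protein NOXA. It averaged 54.2 ± 3.73 TPM in TRF + DDP and 10.1 ± 1.46 TPM in DDP (SD, n = 3 each), a log2 change of 2.33 (adjusted p = 1.79e-08). The tetraspanin CD82 rose by 1.78, PIDD1, the scaffold of the PIDDosome, by 1.40 and the death receptor TNFRSF10A by 1.38 on the log2 scale. CD82 and PMAIP1 were already raised by TRF alone. CD82 averaged 65.5 TPM in TRF against 12.9 TPM in CON, and PMAIP1 8.15 TPM against 4.08 TPM (log2 0.84, adjusted p = 0.000192). PIDD1 and TNFRSF10A were not called there, though TNFRSF10A passed the p threshold without the fold (log2 0.43, adjusted p = 0.000811). MDM2, the ubiquitin ligase that p53 induces and that degrades p53, averaged 184 ± 0.146 TPM in TRF + DDP, 28.6 ± 6.60 TPM in TRF, 91.4 ± 5.95 TPM in DDP and 41.4 ± 4.13 TPM in CON. Its log2 change against DDP was 1.01 (adjusted p = 2.15e-05).

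Of 15 regulators of p53 12 were tested, and 1 was called higher and 3 lower in TRF + DDP than in DDP (11.8% and 21.4% of all genes), with a median log2 fold change of -0.11. Both counts are near the shares over all genes. The regulator called higher was MDM2, which is counted among the other p53 target genes above too. PPM1D, not called here, is also in both lists. The checkpoint kinase CHEK2 averaged 9.71 ± 0.233 TPM in TRF + DDP, 9.66 ± 0.759 TPM in TRF, 25.2 ± 1.44 TPM in DDP and 24.0 ± 0.521 TPM in CON (SD, n = 3 each), so that both groups with TRF were below both groups without it. It fell by 1.29 on the log2 scale in TRF + DDP against DDP (adjusted p = 6.96e-09), and the damage kinase ATM fell by 0.85 (adjusted p = 0.000432). ATM averaged 4.27 TPM in TRF + DDP, 3.26 TPM in TRF, 8.47 TPM in DDP and 7.85 TPM in CON.

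Of 20 relatives of the 8 genes 18 were tested, and 1 was called higher and 5 lower in TRF + DDP than in DDP (11.8% and 21.4% of all genes), with a median log2 fold change of 0.03. The lower count is near the share over all genes. CDKN1B, which encodes the p21 relative p27, averaged 12.7 ± 1.29 TPM in TRF + DDP, 16.5 ± 1.07 TPM in TRF, 25.5 ± 0.822 TPM in DDP and 31.2 ± 0.787 TPM in CON, and was lower than in DDP by a log2 change of -0.96 (adjusted p = 1.9e-07). BTG1 changed by -0.70 and TOB2, of the same antiproliferative family as BTG2, by -0.93, while BTG3 changed by 0.88 on the log2 scale, and all 3 were called. The mitotic kinase PLK1 averaged 31.4 ± 2.09 TPM in TRF + DDP, 95.5 ± 2.99 TPM in TRF, 79.9 ± 6.40 TPM in DDP and 78.1 ± 1.18 TPM in CON, a log2 change of -1.32 against DDP (adjusted p = 2.74e-09), so that PLK2 and PLK3 rose where PLK1 fell. SERTAD3 was not called (-0.55), and GADD45G averaged at most 0.05 TPM in any group and was not tested.

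A list of 24 genes held cyclins, cyclin-dependent kinases, their RB and E2F partners, the CDC25 phosphatases, WEE1 and PCNA. Of these, 23 were tested, and 3 were called higher and 7 lower in TRF + DDP than in DDP (11.8% and 21.4% of all genes), with a median log2 fold change of -0.33. The higher count is near the share over all genes. The pocket protein RBL2 had the largest decrease (log2 -1.43), and its level in TRF was already 6.67 TPM, against 18.1 TPM in CON. Cyclin B2 (CCNB2, log2 -1.26) and the phosphatase CDC25B (-1.25), both of which drive entry into mitosis, were lower, as was the G1 kinase CDK6 (-1.21). The 3 called higher were the phosphatase CDC25A (log2 1.06) and the E-type cyclins CCNE1 (0.89) and CCNE2 (0.88). An interaction term was called negative for 13 of the 23, against 16.3% of all genes, and positive for 2, against 13.5%.

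The 14 genes of stress signalling are MAP kinases downstream of GADD45 and stress-related transcription factors, ATF4 and DDIT3 among them. All were tested, and 5 were called higher and 2 lower in TRF + DDP than in DDP (11.8% and 21.4% of all genes), with a median log2 fold change of 0.27. Of the kinases, MAP2K3 was called higher (log2 0.66) and MAP2K6 lower (-1.85, from 2.66 TPM in DDP), and the others were not called. The other gene called lower was the transcription factor ATF4 (-0.75). The other genes called higher were transcription factors, immediate-early ones included. EGR1 averaged 13.2 ± 2.64 TPM in TRF + DDP and 0.430 ± 0.209 TPM in DDP (SD, n = 3 each; log2 3.31), and FOS 37.1 ± 11.4 TPM in TRF + DDP and 3.09 ± 0.596 TPM in DDP (log2 3.19). JUN rose by 1.47 and ATF3 by 1.30 on the log2 scale. JUN was already raised by TRF alone (log2 1.08 against CON, adjusted p = 2.2e-08), whereas ATF3 was not called there (log2 0.01, adjusted p = 0.927).

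**Figure D4:**
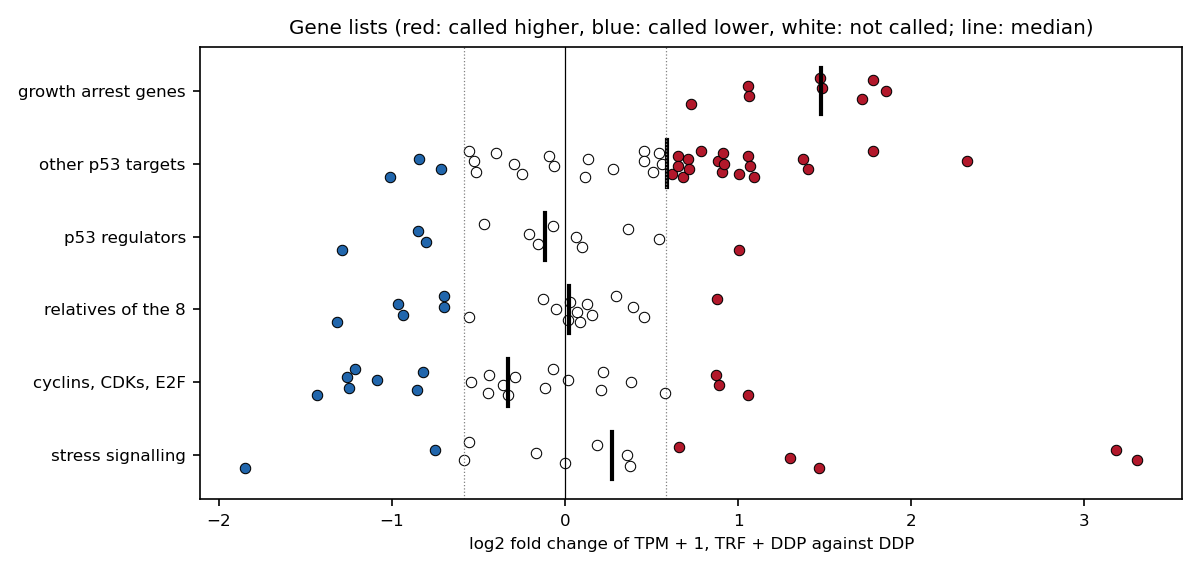
Log2 fold change of TPM + 1 in TRF + DDP against DDP (horizontal axis) for the tested genes of 6 lists; red points were called higher, blue lower, white not called, black lines are list medians and dotted lines the fold of 1.5. The 8 growth arrest genes lie between 0.73 and 1.85 with a median of 1.48, and the medians of the 5 other lists lie between -0.33 and 0.59.

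Each library held 13029 to 14028 genes at 1 TPM or more, and the share of mitochondrial transcripts was 6.37% in TRF replicate 3 and between 8.29% and 10.8% in the others. Without that library the PLK3 decrease in TRF against CON was called (log2 -0.61). Of the epithelial markers KRT7, KRT8 and KRT18 averaged between 442 and 1426 TPM, while EPCAM, KRT19 and CDH1 averaged at most 0.35 TPM, and the lung lineage list of 5 genes summed to at most 5.39 TPM with SFTPA1 at 0 throughout. Endothelial markers summed to at most 0.56 TPM and leukocyte markers to at most 5.41 TPM, with CD3D, CD3E and MS4A1 at 0 in every library. Fibroblast markers, 1 of 8 with a mean of at least 1 TPM, summed to 6.01 to 7.0 TPM in TRF + DDP and 16.5 to 21.0 TPM in DDP. In TRF + DDP against DDP, 1631 genes were called higher and 2968 lower, but 2219 higher and 2299 lower with a TMM-style scaling, which moved the median log2 value by more than 0.1, to 0.03. In TRF against CON, 1165 higher and 2375 lower became 1901 and 1628, with the median at 0.04 in place of -0.11, and GADD45B in DDP against CON, not called either way, turned to 0.00 with a negative sign.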

How the data were processed

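RNA of A549/DDP cells was sequenced on an Illumina platform, per the labels, and the authors deposited one table of TPM for 12 libraries. Reads had been trimmed with SeqPrep and sickle, mapped with HISAT2 and assembled with StringTie by the authors. Versions, genome build and strand setting are not stated there, and the submitters' processing notes name edgeR. The table held 60664 Ensembl rows and 238 assembled loci, and 4 columns of the authors' group means were not used. TPM carry no read depth, so depth is unknown and no counting interval was computed. Symbols came from a separate list of gene names, and coordinates and exons from GENCODE v29.

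Genes averaging 1 TPM or more (13854) were tested on log2(TPM + 1), a scale that understates changes of low genes, with limma 3.58.1 in R 4.3.3 (1 fit of 4 groups, trended and robust empirical Bayes, Benjamini-Hochberg adjustment per comparison). A call needed an adjusted p under 0.05 and more than 1.5-fold, the interaction the p alone. The fit was tested on simulated data. Figures were drawn with matplotlib 3.10.9 in Python 3.11.15. The members and lists were chosen with earlier results of these data known. From each list, up to 4 called genes with the largest change in TRF + DDP against DDP that reached 5 TPM in some group's average were named, besides MDM2 and the nearest relatives. Also named were the other genes called higher in the list of cyclins and the other called genes of stress signalling. Some genes that this rule or the likeness measure selected are not reported here. Alternatives were the pseudocount, filter, scaling, fold threshold, plain empirical Bayes, fits of the compared groups alone, a replicate block and leaving out each library. Replicate numbers did not pair the libraries.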

Additional observations from a re-analysis of the deposited data

Results flagged for a closer look

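For 6 of the 8 growth arrest genes the effect of cisplatin differed between the groups with and without TRF, by limma's interaction term (3 libraries a group). Of all genes tested, 13.5% had a positive term called and 16.3% a negative one. The labels do not give the medium of the DDP group. The DDP effect under TRF exceeded that without TRF by 2.02 on the log2 scale for BTG2, 1.69 for CDKN1A, 1.62 for PLK3, 1.39 for SERTAD1, 1.19 for GADD45A and 0.69 for GADD45B. Over 19 alternatives, the leaving out of each library among them, all 6 terms stayed positive, with an adjusted p of at most 0.00308.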

How the results depend on the processing

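Under the alternatives that kept the call thresholds, 944 of 952 values of the 8 genes kept their direction and their side of the threshold. Without the fold threshold, the genes called were 9056 for TRF + DDP against DDP, 6639 for TRF + DDP against TRF, 9314 for TRF + DDP against CON, 8412 for TRF against CON and 1690 for DDP against CON, where 7 of the 8 genes were then called in place of 4, as were 6 in place of 4 for TRF against CON. With a fold over 1.5 asked of the interaction, 1845 genes were called. These counts follow from the thresholds themselves. GADD45B in TRF against CON, never called under leave-one-out, ranged from -0.014 to 0.074 on the log2 scale over the libraries left out, the lowest without TRF replicate 1, and in DDP against CON it was -0.00011 with TMM-style scaling (adjusted p = 1.0 by limma). SFN in TRF + DDP against TRF lost its call with TMM-style scaling (0.56). The decrease of PLK3 in TRF against CON gained a call with a pseudocount of 0.1 (-0.63) and without CON replicate 3 (-0.61), TRF replicate 2 (-0.60) or TRF replicate 3 (-0.61), and SFN in DDP against CON did so without DDP replicate 2 (0.61), all on the log2 scale. The excess of CDKN1A was 687 TPM with TMM-style scaling. Libraries with the same replicate number did not deviate together (r between -0.082 and 0.080 over 18 pairs), and with a replicate block 4590 genes were called in TRF + DDP against DDP, and all 48 values of the 8 genes kept their call. The unknown depth and the TPM unit limit what can be said of low genes such as GADD45G.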
